A study of Mus musculus with 6 samples.

Results

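The genes described here make microRNAs and carry out silencing by them. They are 10 genes chosen by name: Drosha, Dgcr8, Xpo5, Dicer1, Tarbp2, Ago1, Ago2, Tnrc6a, Tnrc6b and Tnrc6c. Of these, 8 had at least 1 probe set under their own symbol in the platform annotation, 18 probe sets in all out of 22690 in the table. No probe set was listed there under Drosha or Ago1 or their older symbols, so these 2 genes were not analysed here. All 8 other genes were bright enough to be among the 9295 genes tested, out of 12393 named. The arrays came from CD4 T cells of C57BL/6 mice, 3 arrays from miR-155 knockout mice (KO) and 3 from wild-type mice (WT), each from its own mouse per the series description. Cells of both genotypes were isolated from spleen and lymph nodes on magnetic CD4 beads and stimulated in culture for 3 days. The medium held 1 µg/mL of CD3 and CD28 antibodies, which trigger the T cell receptor and its costimulator, and 20 U/mL of the growth factor interleukin 2. The sources used here do not give the animals' ages or the part of the Mir155 locus removed in KO. The labels name no other allele or agent.

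A microRNA is cut from a hairpin in a longer transcript. Drosha and its RNA-binding partner Dgcr8 release the hairpin in the nucleus, exportin 5 (Xpo5) carries it out, and Dicer1, with its partner Tarbp2, removes the loop. An Argonaute protein keeps 1 strand as a guide, and the Tnrc6 proteins, known as the GW182 family, link it to the enzymes that shorten and decap the target mRNA. Activated T cells are known to take Argonaute proteins down by degradation, which a transcript measurement does not see. The comparison asks whether transcripts of this machinery differ when 1 abundant microRNA of activated T cells is absent.

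The RNA that the knockout lacks is shown because it is the machinery's substrate here, and each processing step leaves a mark on it. The sequences and positions are those of RefSeq on GRCm38.p6, plus strand. Capitals in the hairpin mark the 2 mature arms, and capitals in each arm mark its seed, bases 2 to 8, which pairs with targets.
Mir155 hairpin, chr16:84714140-84714204: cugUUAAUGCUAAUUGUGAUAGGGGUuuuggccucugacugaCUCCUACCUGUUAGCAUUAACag
mmu-miR-155-5p: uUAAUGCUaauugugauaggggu
mmu-miR-155-3p: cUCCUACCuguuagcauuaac
The 5p arm spans bases 4 to 26 of the 65-base hairpin and the 3p arm bases 43 to 63. The outer ends of the arms are those left by Drosha, and the 16 bases between the arms are the loop that Dicer1 removes. Among 1679 mature mouse microRNAs in that table, 1 has the seed of miR-155-5p, which is miR-155-5p itself.

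Several facts of the arrays bear on what follows. Mir155hg, the host transcript of miR-155, measured 3.51 to 4.45 on the KO arrays and 6.59 to 8.21 on the WT arrays in log2 units, each on the side of its label. All 8 CD4 T cell markers listed were well above the mean of the dimmest gene tested, 4.72, with list means of 10.8 to 11.4. The means of 5 B cell markers ran from 5.91 to 6.52 in KO and from 5.79 to 6.66 in WT, those of 3 CD8 markers from 6.71 to 7.15 and from 6.95 to 7.25. The means of 6 macrophage markers, 5 of them with a higher mean in KO, ran from 4.90 to 5.21 and from 4.75 to 5.05. Of these Lyz2, Itgam and Cd14 were below 4.72 on every array, and Csf1r and Cd68 above it, with Cd68 0.63 higher in KO. Both replicate 1 arrays carried Xist and not the Y-linked transcripts, both replicate 2 arrays the reverse, and both replicate 3 arrays both kinds (Xist 12.6 and Eif2s3y at 10.05 and 10.21), which 1 mouse per array does not give. In 15 cell cycle genes, all with a lower mean in KO, the list scores relative to the mean of all arrays were -0.88, 0.086 and -0.090 on KO replicates 1 to 3 and 0.35, 0.28 and 0.25 on WT replicates 1 to 3. The KO arrays thus lay below the WT arrays, KO replicate 1 farthest, and the part of this in the results was not tested.

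No gene of the machinery passed the test between genotypes, and neither did any other gene. Over the 9295 genes limma called 0% at an adjusted p under 0.05, and 691 genes, or 7.43%, had an unadjusted p under 0.05. Of the 8 machinery genes, 0 passed adjusted and 1, Tarbp2, unadjusted; it was higher in KO, as were 3.57% of all genes at that level. Higher means in KO were found in 6 of 8, against 49.2% of all genes tested, a split of few genes that was not tested. The median difference was 0.27 log2 units, against -0.0036 over all genes. The 6 were Tnrc6b, Tarbp2, Ago2, Tnrc6a, Tnrc6c and, by a margin far within the spread, Dgcr8, and the 2 lower ones were Xpo5 and Dicer1. All differences are KO minus WT of 3 against 3 arrays on the log2 scale, with the standard error and the 95% interval of the limma fit over all genes. In RNA from whole cultures, fewer cells of a type and less RNA per cell cannot be told apart. With 3 against 3 arrays an exact permutation test of a single gene cannot give a p under 0.1.

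**Figure D1:**
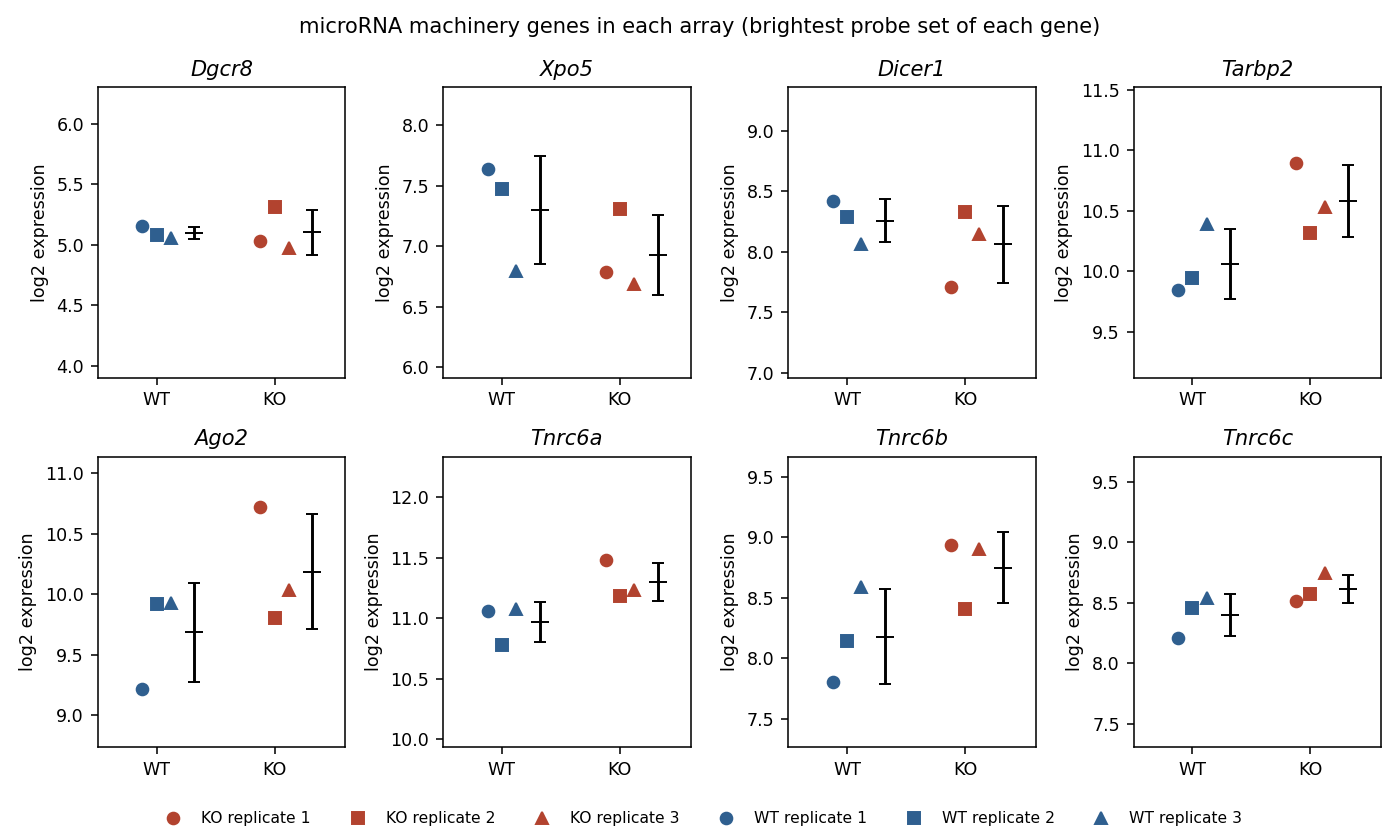
Log2 expression of the 8 machinery genes on each array (brightest probe set of each gene; marker shape gives the replicate number, black bars the mean ± SD of 3 arrays; every panel spans 2.4 log2 units). Only Tnrc6a has all KO arrays above all WT arrays; in Tarbp2 and Tnrc6b WT replicate 3 lies among the KO arrays.

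The nuclear step was represented by Dgcr8, the RNA-binding partner of Drosha. Dgcr8 measured 5.03, 5.32 and 4.97 on KO replicates 1 to 3 and 5.15, 5.09 and 5.06 on WT replicates 1 to 3. The KO arrays enclosed the WT arrays on both sides. The means were 5.11 ± 0.19 and 5.10 ± 0.05 (SD, n = 3), a difference of 0.0051 ± 0.13 (SE) with an interval from -0.31 to 0.32 (limma adjusted p = 0.992). Its level was close to 4.72, where differences in such summaries are compressed, and its sign changed with the array left out (-0.10 without KO replicate 2 and 0.072 without KO replicate 3).

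Export was represented by Xpo5, the carrier of hairpins through the nuclear pore. Xpo5 measured 6.79, 7.31 and 6.69 in KO and 7.64, 7.47 and 6.79 in WT. WT replicate 3 lay with the 2 low KO arrays, and KO replicate 2 close to the 2 high WT arrays. The means were 6.93 ± 0.33 and 7.30 ± 0.45 (SD, n = 3), and the difference was -0.37 ± 0.27 (SE), with an interval from -1.02 to 0.27 (limma adjusted p = 0.656). It was -0.63 without WT replicate 3 and -0.20 without WT replicate 1.

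Dicer1, the ribonuclease that cuts off the loop, had 2 probe sets. The brighter measured 7.71, 8.33 and 8.15 in KO and 8.42, 8.29 and 8.07 in WT. KO replicate 1 was the lowest array, and the other 2 KO arrays lay within the WT range. The difference was -0.20 ± 0.19 (SE), with an interval from -0.66 to 0.26 (limma adjusted p = 0.729), and -0.019 without KO replicate 1. The dimmer probe set repeated this order at the low end, with 6.69 on KO replicate 1 against 7.12 to 7.35 on the other 5 arrays, and differed by -0.10 ± 0.17 (SE).

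Tarbp2, the double-stranded RNA-binding partner of Dicer1 that helps to load Argonaute, was the machinery gene with the smallest unadjusted p. It measured 10.90, 10.31 and 10.53 in KO and 9.85, 9.95 and 10.39 in WT. WT replicate 3 lay above KO replicate 2, so the genotypes overlapped by 1 array. The means were 10.58 ± 0.30 and 10.06 ± 0.29 (SD, n = 3), a difference of 0.52 ± 0.21 (SE), or 1.44-fold, with an interval from 0.016 to 1.03 (limma unadjusted p = 0.0449, adjusted p = 0.631). The second probe set, at 10.01, 9.52 and 9.65 in KO and 9.10, 9.13 and 9.78 in WT, differed by 0.39 ± 0.22 (SE). There too WT replicate 3 lay among the KO arrays. The difference of the brighter probe set was 0.36 without KO replicate 1 and 0.69 without WT replicate 3.

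Ago2, the Argonaute that can itself cut a fully paired target, measured 10.72, 9.81 and 10.04 in KO and 9.21, 9.92 and 9.93 in WT. A high KO replicate 1 and a low WT replicate 1 stood outside the 4 other arrays, which lay between 9.81 and 10.04 whatever their genotype. The means were 10.19 ± 0.47 and 9.69 ± 0.41 (SD, n = 3), a difference of 0.50 ± 0.30 (SE) with an interval from -0.21 to 1.22 (limma adjusted p = 0.634). It was 0.24 without KO replicate 1. Ago3 and Ago4, the remaining Argonautes, had no probe set under their own or older symbols in the annotation used and were not analysed here.

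All 3 genes of the GW182 family had a higher mean in KO. Tnrc6b measured 8.93, 8.41 and 8.90 in KO and 7.80, 8.14 and 8.59 in WT, with WT replicate 3 above KO replicate 2. Its means were 8.75 ± 0.29 and 8.18 ± 0.39 (SD, n = 3), and its difference of 0.57 ± 0.24 (SE), or 1.48-fold, was the largest of the machinery (interval -0.01 to 1.15, limma adjusted p = 0.631). Leaving out 1 array at a time moved it between 0.38 without WT replicate 1 and 0.78 without WT replicate 3. Tnrc6c measured 8.51, 8.57 and 8.74 in KO and 8.20, 8.45 and 8.53 in WT, so WT replicate 3 lay just above KO replicate 1. Its difference was 0.21 ± 0.14 (SE), with an interval from -0.11 to 0.54 (limma adjusted p = 0.640), and was 0.12 without WT replicate 1. The dimmer probe set of Tnrc6c, drawn from the same source sequence as the brighter, had its lowest and its highest array in WT, at 7.29 and 7.91, and differed by 0.10 ± 0.17 (SE).

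Tnrc6a had 8 probe sets and was the machinery gene in which all KO arrays lay above all WT arrays. Such a gap was seen in 12.8% of all genes tested, in 5.86% with KO higher, so 1 of 8 is near that background. The brightest probe set measured 11.48, 11.19 and 11.23 in KO and 11.06, 10.77 and 11.07 in WT. The means were 11.30 ± 0.16 and 10.97 ± 0.17 (SD, n = 3), a difference of 0.33 ± 0.14 (SE), or 1.26-fold, with an interval from -0.011 to 0.67 (limma adjusted p = 0.631). KO replicate 1 was the highest array and WT replicate 2 the lowest, and without WT replicate 2 the difference was 0.23.

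The other Tnrc6a probe sets did not all repeat that difference. With KO above WT on every array were 6 of 8, the brightest included, with differences from 0.25 to 0.35. The sixth in brightness differed by 0.026 ± 0.11 (SE), its KO arrays at 8.51 to 8.64 inside the WT range of 8.42 to 8.67. The dimmest had all KO arrays, at 4.0 to 4.07, below all WT arrays, at 4.09 to 4.43, and differed by -0.24 ± 0.12 (SE), at a level under that of the dimmest gene tested. These probe sets are not independent measurements. They share the RNA of each array, and in the platform annotation 3 of them were drawn from 1 source sequence and 3 from another. WT replicate 2 was the lowest array in 7 of 8, all but the dimmest, and KO replicate 1 the highest in 6.

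**Figure D2:**
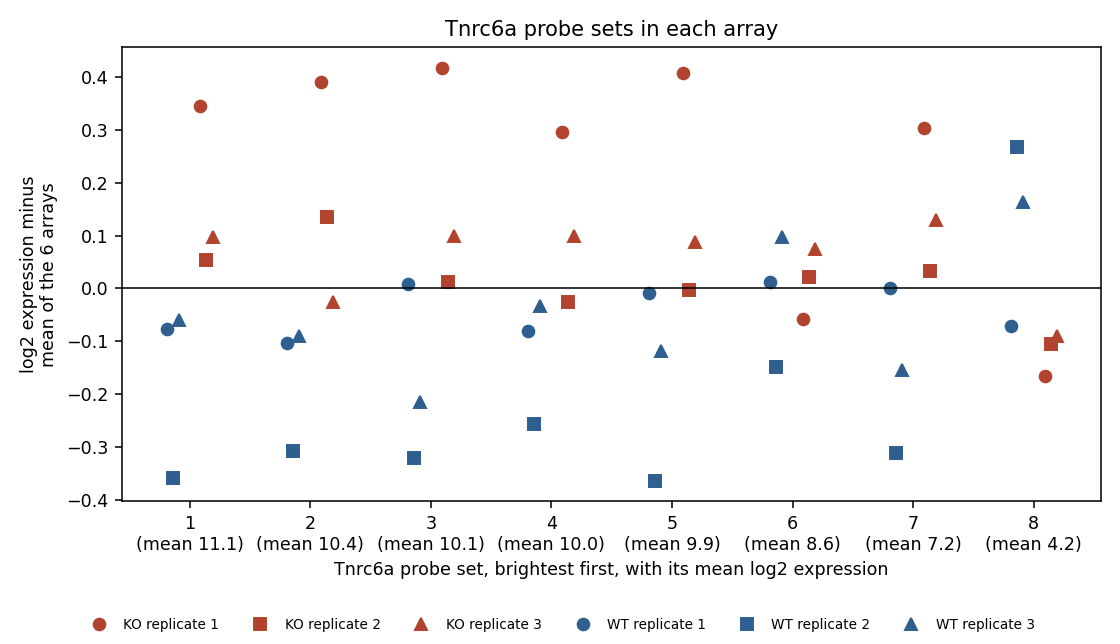
The 8 Tnrc6a probe sets on each array, as log2 expression minus the probe set's mean over the 6 arrays, in order of brightness. In 6 of 8 all KO arrays lie above all WT arrays; the sixth overlaps, and the eighth, the dimmest, has KO below WT.

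Over all 18 machinery probe sets, 14 had a higher mean in KO, against 50.4% of the 22626 probe sets tested, and 0 passed at an adjusted p under 0.05, as did 0% of all. At an unadjusted limma p under 0.05 were 4, the brighter of Tarbp2 and 3 of Tnrc6a, all higher in KO, against 6.55% of all probe sets in either direction and 3.22% with KO higher. The arrays of the genotypes did not overlap in 7, against 11.7% of all probe sets, and with KO higher in 6, against 5.89%. All 7 belong to Tnrc6a. These shares therefore count 1 gene many times over. The number at an unadjusted p under 0.05 was 0 without KO replicate 1, 5 without KO replicate 2 and 1 without KO replicate 3. It was 3 without WT replicate 1, 0 without WT replicate 2 and 4 without WT replicate 3. The shares of all probe sets in these fits are not given here. In the gene fit the number of all genes at that level also moved, from 276 of 9295 without WT replicate 1 to 1542 without KO replicate 2. These counts are therefore not read as a result about the machinery.

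**Figure D3:**
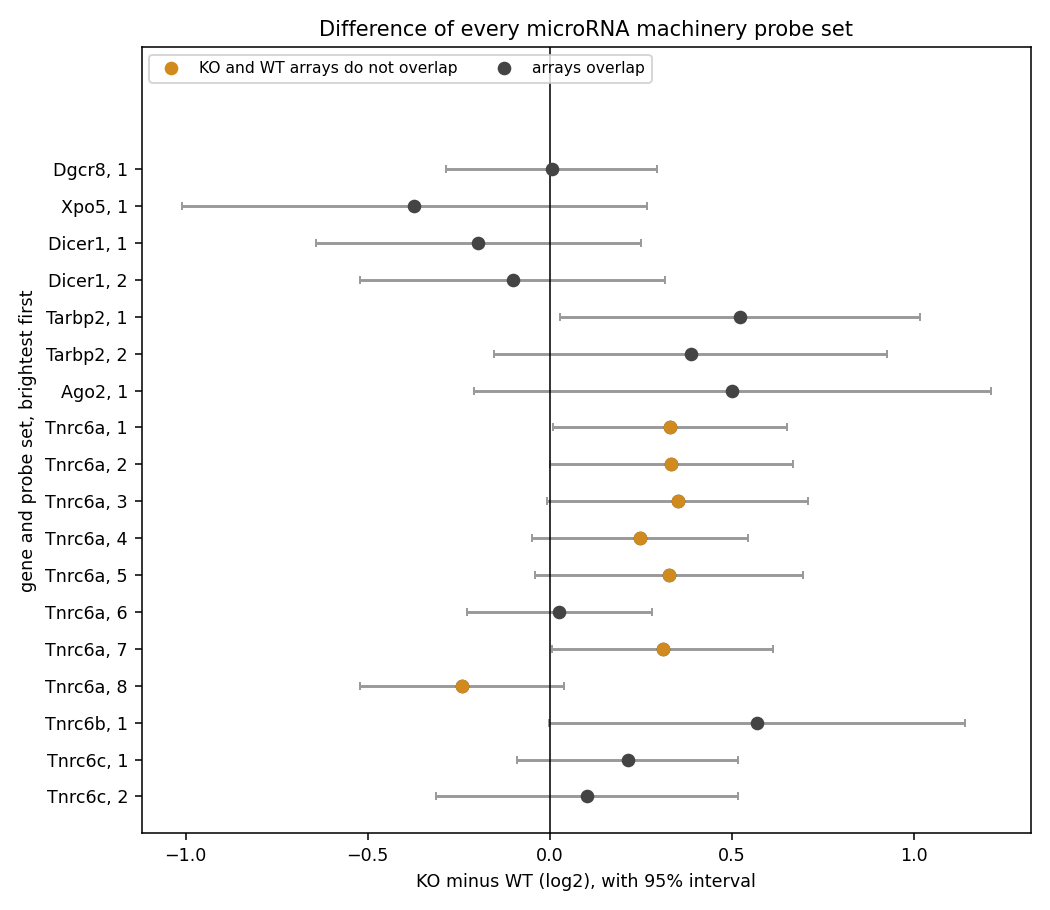
KO minus WT in log2 units for every machinery probe set (points) with the 95% interval of the limma fit over all probe sets (bars), grouped by gene and ordered by brightness within a gene. Most intervals include 0; orange points, all of Tnrc6a, mark probe sets whose KO and WT arrays do not overlap.

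In these genes, Tnrc6a apart, the arrays did not fall in order of genotype. In the first principal component of all other genes tested, which held 61.9% of the variance, the scores were below 0 for 2 KO arrays (replicate 1 at -41.3, replicate 3 at -14.6) and WT replicate 3 (-7.35). They were above 0 for WT replicates 1 and 2 (26.0 and 23.8) and KO replicate 2 (13.4). The 3 arrays with scores below 0 were the 3 highest in Tarbp2, Ago2 and Tnrc6b, and the 3 lowest in Dgcr8, Xpo5 and Dicer1. This makes 6 of 8 machinery genes, against 37.6% of all genes tested, a share that the component itself raises. Tnrc6a and Tnrc6c were in neither group, though both came near it. In Tnrc6a KO replicates 1 and 3 were the highest arrays, but KO replicate 2, at 11.19, lay above WT replicate 3, at 11.07. In Tnrc6c KO replicate 2, at 8.57, lay above KO replicate 1, at 8.51. Since 2 of the 3 arrays on either side share a genotype, the component and the genotype cannot be told apart fully with these arrays, and its part in the differences was not tested.

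**Figure D4:**
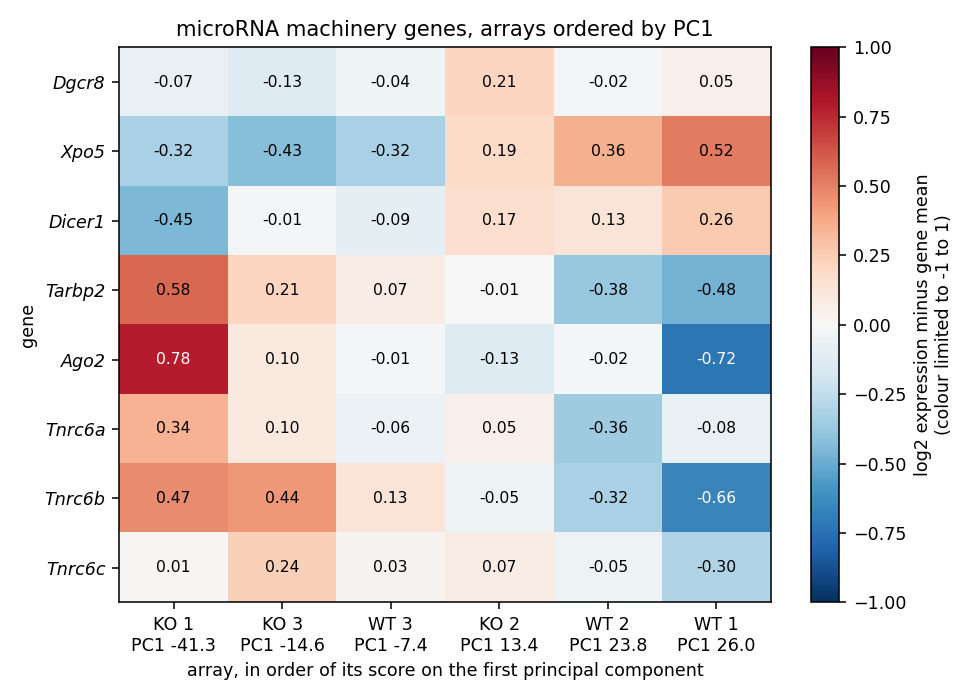
Log2 expression minus the gene's mean over the 6 arrays (number and colour) for the 8 machinery genes, with arrays in order of their score on the first principal component of all other genes. The 3 arrays on the left are the 3 highest in Tarbp2, Ago2 and Tnrc6b and the 3 lowest in Dgcr8, Xpo5 and Dicer1. In Dgcr8 the margin is narrow, with WT replicate 3 at 5.06 and WT replicate 2 at 5.09.

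Since same-numbered arrays carried the same sex-linked transcripts, the genotypes were also set side by side within each number, with 1 array against 1 and hence no test. Tarbp2 differed by 1.05, 0.37 and 0.14 at numbers 1, 2 and 3, and Tnrc6b by 1.13, 0.27 and 0.31. Tnrc6a differed by 0.42, 0.41 and 0.16, and Tnrc6c by 0.31, 0.12 and 0.21. These 4 genes were higher in KO at all 3 numbers. Ago2 differed by 1.5, -0.11 and 0.11, Dicer1 by -0.71, 0.043 and 0.080 and Dgcr8 by -0.13, 0.23 and -0.090, each with both signs. Xpo5 was lower in KO at all 3 numbers, by -0.84, -0.16 and -0.11. In 7 of these 8 genes, all but Dgcr8, the difference at number 1 was the largest in size. KO replicate 1, the array with the lowest cell cycle score, is 1 side of the difference at number 1, and its part in these differences was not tested. The shares of all genes tested with 1 sign at all 3 numbers, or with the largest difference at number 1, are not given here. Neither pattern is therefore read as particular to the machinery.

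The proteins around this core were followed through 70 further genes of the pathway listed by role, of which 52 had a probe set and 50 were tested. Of these 50, 0 passed the adjusted test and 5 had an unadjusted limma p under 0.05, 2 higher and 3 lower in KO, against 7.43% of all genes (3.57% higher and 3.86% lower). The arrays of the genotypes did not overlap in 12% of the 50 (1 higher and 5 lower in KO), near the 12.8% of all genes tested. Higher means in KO were found in 21 of 50, against 49.2% of all genes, and the median difference was -0.042. The positive median of the core genes was thus not seen in the wider list, though the difference between the lists was not tested. The arrays with component scores below 0 were the 3 highest or the 3 lowest in 27 of the 50, or 54%, against 37.6% of all genes tested.

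Among 10 nuclear processing partners, 4 were higher and 6 lower, with 0 past the adjusted test. Ddx17, an RNA helicase of the large Drosha complex, measured 12.40, 12.12 and 12.27 in KO and 11.84, 11.73 and 11.98 in WT, with no overlap. It differed by 0.41 ± 0.13 (SE, limma adjusted p = 0.631), and its other 2 probe sets by 0.34 (arrays overlapping) and 0.40 (not overlapping). Ilf2 measured 8.49, 8.70 and 8.43 in KO and 9.39, 9.05 and 8.78 in WT, again with no overlap. It differed by -0.54 ± 0.18 (SE), and its other probe set, in which the arrays overlapped, by -0.57. Adarb1, an enzyme that edits adenosines in double-stranded RNA, differed by 0.61 ± 0.23 (SE), with WT replicate 3, at 7.85, above KO replicate 2, at 7.78.

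Among 13 loading factors and cofactors of the silencing complex, 3 were higher and 10 lower, with 0 at an unadjusted p under 0.05. The smallest p belonged to Tsn, a subunit of the nuclease C3PO that clears the discarded strand, and Fkbp4, a co-chaperone of Hsp90. Tsn differed by -0.32 ± 0.15 (SE), and by -0.20 without KO replicate 1. Its KO arrays, at 9.99, 10.45 and 10.26, were all below its WT arrays, at 10.61, 10.59 and 10.45, with the nearest pair almost level. The other probe sets of Tsn differed by -0.29, -0.15 and -0.34, each with overlapping arrays. Fkbp4 differed by -0.76 ± 0.36 (SE), but by -0.090 in its dimmer probe set. Of 5 genes for tailing and turnover of small RNAs 3 were lower. Eri1, an exonuclease that trims small RNAs, measured 8.48, 8.98 and 8.69 in KO and 9.24, 9.11 and 9.06 in WT, a difference of -0.42 ± 0.16 (SE) with no overlap, and -0.30 in its other probe set.

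Among 14 genes for deadenylation, the shortening of the poly(A) tail to which the GW182 proteins lead, 9 were higher and 5 lower. Cnot9, the CCR4-NOT subunit that holds tryptophans of the GW182 proteins, measured 8.88, 9.08 and 8.98 in KO and 9.53, 9.34 and 9.20 in WT, a difference of -0.37 ± 0.13 (SE) with no overlap. It was thus opposite in sign to all 3 Tnrc6 genes, and none of the 4 passed the adjusted test (limma adjusted p = 0.631 for Cnot9). The largest difference of this role was that of Btg2, 0.68 ± 0.32 (SE), with overlapping arrays. Btg1 differed by 0.36 ± 0.18 (SE), also with overlapping arrays. Its dimmer probe set differed by 0.51 ± 0.12 (SE) with no overlap (limma adjusted p = 0.705 over all probe sets). Of 8 genes for translational repression, decapping and decay, 3 were higher and 5 lower, with 0 at an unadjusted p under 0.05. Eif4enif1, which binds the cap-binding protein eIF4E, differed by -0.56 ± 0.25 (SE), and by -0.30 without KO replicate 1. Lsm1, part of the ring that marks shortened mRNAs for decapping, differed by -0.40 ± 0.22 (SE).

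**Figure D5:**
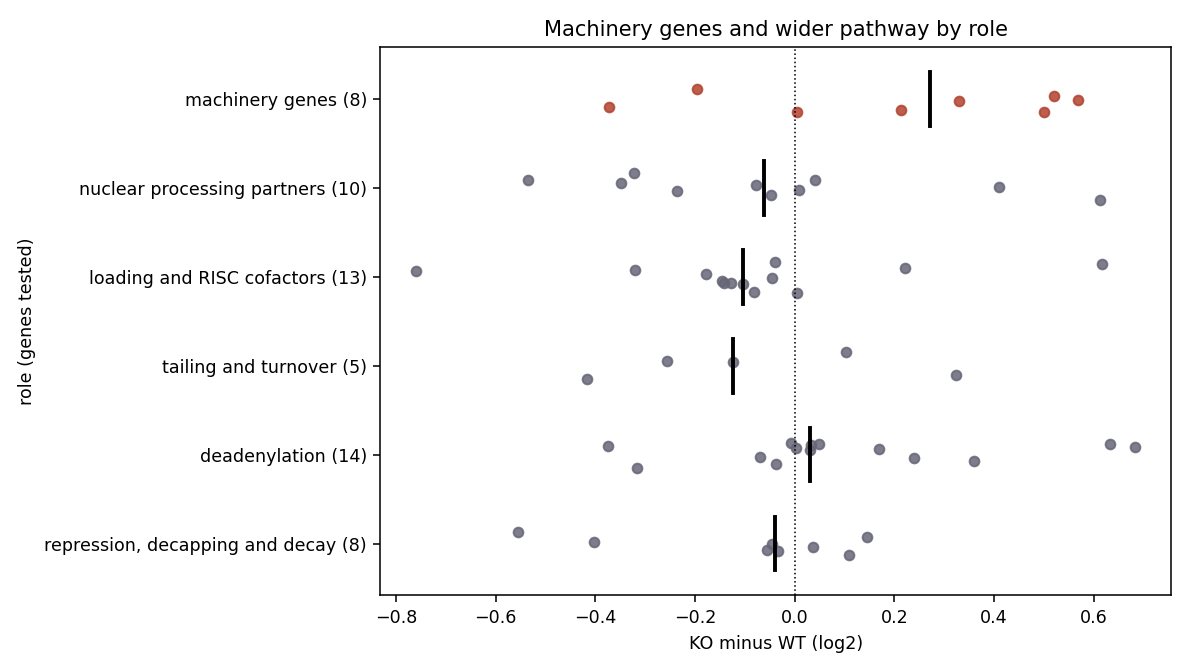
KO minus WT in log2 units for each tested gene (points) of the core machinery and of 5 roles in the wider pathway, with each group's median (black bar) and the number of genes tested in brackets; vertical scatter within a row has no meaning. The median of the core is 0.27, and those of the other roles lie between -0.12 and 0.032.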

How the data were processed

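The deposited values are log2 expression per probe set; the submitters' processing notes name RMA and affy, without versions, for this step by the authors. No detection calls were used. RMA compresses differences of dim genes. Samples were grouped by their titles. Probe sets were named through GEO's platform annotation (20380 with 1 symbol, 691 with several, 1555 with none; 64 controls left out). The probe set with the highest mean stood for each gene, and the dimmest 25% of genes by mean were dropped. The genotypes were compared in R 4.3.3 with limma 3.58.1 (lmFit, eBayes, two-sided, Benjamini-Hochberg over the 9295 genes, threshold 0.05), and again over all 22626 probe sets without filter. The code was tested on simulated data. No set test was run, and no p was adjusted over a list alone. The number of arrays limits precision. Replicates are separate mice per the series description.

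The genes and lists were chosen with earlier results of these data known. Named were all machinery genes with every probe set and, from each role, genes with an unadjusted p under 0.05, or else the 2 with the smallest p. Btg1 and Btg2 were named after seeing the data. Alternatives were the replicate block, each array left out, median centring, quantile normalization, no filter or 50%, mean of probe sets, trend and robust moderation, none, array weights and a threshold of 0.1. Leaving out both replicate 3 arrays, and all alternatives for the wider pathway and single probe sets, were chosen after seeing the data.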

Additional observations from a re-analysis of the deposited data

How the results depend on the processing

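In the gene fit, 7 of the 8 machinery genes kept the sign of their difference under every alternative tried, and Dgcr8 did not. The replicate block, filters, moderation and threshold leave a gene's difference unchanged, so agreement there was fixed in advance. Dgcr8 turned to -0.0058 under a further quantile normalization and to -0.089 with array weights. It ranged from -0.10 to 0.072 with 1 array left out, at -0.0022 without WT replicate 2 and -0.015 without WT replicate 3. Signs also turned in single probe sets. The dimmer of Dicer1 was at 0.081 without KO replicate 1, and the dimmer of Tnrc6c at -0.086 without WT replicate 1. The sixth in brightness of Tnrc6a was at -0.042 without WT replicate 2. With array weights, 3575 of all 9295 genes passed the adjusted threshold. Among them were 5 of 8 machinery genes (Tarbp2, Tnrc6a, Tnrc6b, Tnrc6c and Xpo5) and 22 of 50 genes of the wider pathway. Under the other alternatives 0 genes passed at a threshold of 0.05. With equal weights and all 6 arrays, 0 genes passed at a threshold of 0.1. The weights were 5.55 for KO replicate 3, 5.04 for WT replicate 2 and at most 0.58 for the other 4 arrays. That gene fit thus rests mainly on 1 array per genotype. A separate weighted fit over all probe sets called 0 of the 18. Its differences were not those of the gene fit (Ago2 at 0.27 against 0.20). Its weights and the share of all probe sets that it called are not given here. The smallest adjusted p of any gene ranged from 0.0913 to 0.880 with 1 array left out. The number of machinery genes at an unadjusted p under 0.05 ranged from 0 to 3 with 1 array left out. It was 3 of 8 with median centring, where 670 of all 9295 genes were at that level. The number of all genes at that level ranged from 276 to 1542 with 1 array left out. The median difference was 0.18 with the mean of all probe sets of a gene and ranged from 0.19 to 0.33 with 1 array left out. Same-numbered arrays deviated together at numbers 2 and 3 (r = 0.638 and 0.404 across genes) and not at number 1 (-0.042), so the numbers were not taken as pairs; with the replicate block 0 genes passed and the count of machinery genes at an unadjusted p under 0.05 stayed 1, then Tnrc6a (0.0391) in place of Tarbp2 (0.0633). Without both replicate 3 arrays, whose sex-linked transcripts do not match 1 mouse, 6 of 8 were still higher and the median was 0.32.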
